A study of Mus musculus with 6 samples.

Results

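The matrix metalloproteinases (MMP), the ADAM and ADAMTS proteases, the tissue inhibitors of metalloproteinases (TIMP) and the HTRA serine proteases were followed in pressure-loaded mouse hearts. Members were taken by gene symbol, as every gene named Mmp, Adamts or Adam with a number, Timp1 to Timp4 and Htra1 to Htra4 that had a probe set assigned to it alone. This gave 69 of the 18029 genes measured, with 18 MMP, 15 ADAMTS, 28 ADAM, 4 TIMP and 4 HTRA genes on 124 probe sets. The RefSeq gene table holds 84 genes with such symbols, and the other 15, among them Adamts2 and Mmp15, were not analysed here. Total RNA came from hearts of 3 Flox wild type mice and 3 Tmbim1 KO mice, written here as WT and KO, with 1 array for each biological sample. All 6 mice were C57BL/6, 8 weeks old, and had carried an aortic band for 2 weeks. The labels write aortic binding, read here as banding. The band is a surgical constriction that raises the pressure the left ventricle pumps against, and it is shared by both groups, so the comparison is between genotypes in banded hearts. How and in which cells Tmbim1 was deleted is not given in the sources used here. The comparison asks which extracellular proteases and inhibitors differ in the loaded heart when Tmbim1, a gene for a membrane protein of endosomes and lysosomes, is knocked out.

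These families remodel the matrix around heart cells and release proteins from cell surfaces. MMP enzymes cut collagens, gelatin, laminin and other matrix proteins with a zinc ion in the active site. TIMP proteins bind that site and block it, and TIMP3 also blocks several ADAM and ADAMTS enzymes. ADAM enzymes sit in the cell membrane and shed growth factor precursors, cytokines and receptors, ADAMTS enzymes are secreted and cut proteoglycans and procollagens, and HTRA1, HTRA3 and HTRA4 are secreted serine proteases while HTRA2 resides in mitochondria. In loaded hearts, matrix turnover by these proteins accompanies fibrosis and dilation.

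Values are log2 signals, so a difference of 1 is a 2-fold change, and every difference is KO minus WT. The targeted gene itself, Tmbim1, averaged 8.43 in WT and 7.53 in KO hearts (difference -0.91, SE 0.10, limma adjusted p = 0.00579). This is 1.87-fold lower, and the KO signal stayed above the upper quartile of all probe sets, 6.19. Pairs of arrays had correlations between 0.989 and 0.996. All 10 heart muscle markers lay above the upper quartile of probe sets. The array of KO mouse 1 stood apart in atrial genes, with Myl7 at 12.86 there and between 3.45 and 3.90 on the other 5 arrays. The array of WT mouse 3 was low for activated fibroblast genes, with Postn at 8.98 there against 10.98 and 11.52 in the other WT hearts.

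Of the 69 members, 3 rose and 1 fell in KO hearts, at an adjusted p below 0.05 in limma, where p-values were adjusted over all 38195 probe sets. The inhibitor Timp1, the proteoglycan-cleaving protease Adamts1 and the stromelysin Mmp3 rose, and the secreted serine protease Htra1 fell. Over all genes measured, 0.549% were called in either direction, 0.322% as higher and 0.227% as lower. The median size of the difference, whatever its sign, was 0.095 for the members and 0.097 for all genes, and 33 members had a positive and 36 a negative difference. An unadjusted p below 0.05 was found for 12 members, which is 17.4%, against 11.5% of all genes. The KO arrays lay wholly above the WT arrays for 9 members and wholly below for 5, together 20.3%, against 16.7% of all genes. Leaving out both KO mouse 1 and WT mouse 3 leaves 2 hearts in each group. In that fit limma called 0 members and 29 probe sets of the whole table.

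**Figure D1:**
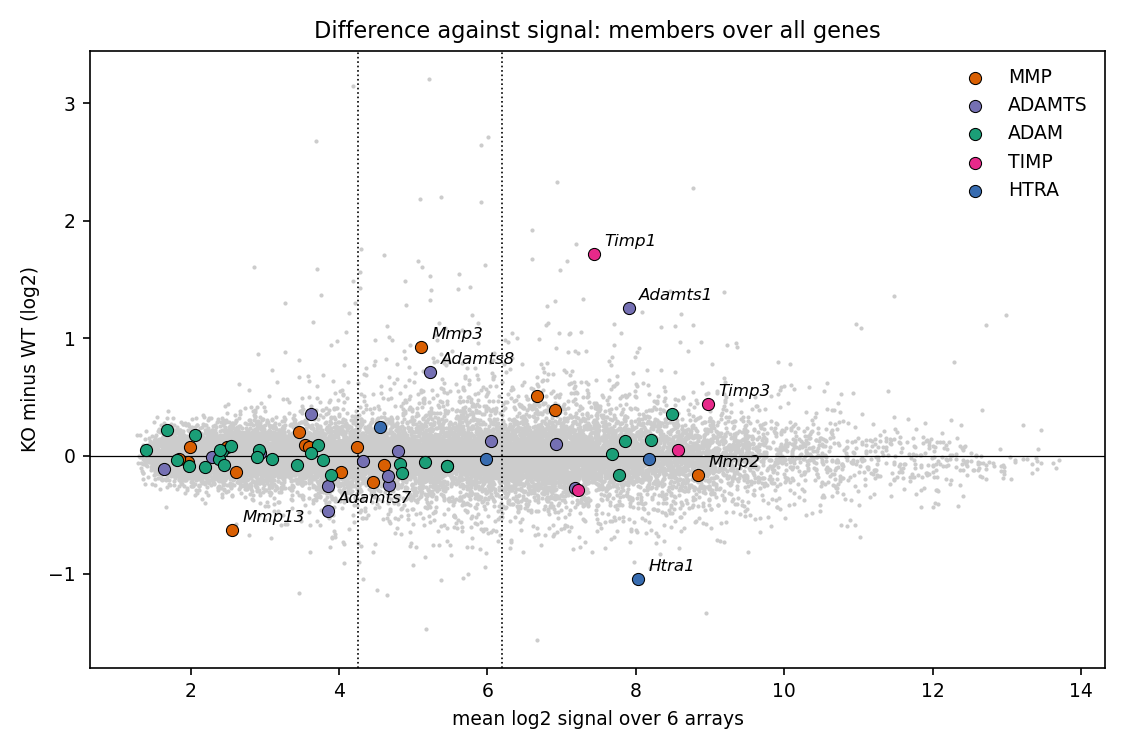
Difference between KO and WT hearts (log2) against mean signal over the 6 arrays (log2), with all 18029 genes in grey and the 69 members coloured by family; dotted lines mark the median and the upper quartile of all probe sets. Timp1 at 1.72, Adamts1 at 1.26 and Mmp3 at 0.93 stand above the cloud of members near 0, and Htra1 at -1.05 stands below it.

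The promoters of the 4 members that changed are shown because the 3 that rose and the 1 that fell can be compared at their start sites. They are RefSeq sequences of GRCm38.p6, covering the 250 bases before the annotated start of transcription, 5′ to 3′ on the strand of the gene. Capitals mark the letters of a TATA box (TATAAA) or of an AP-1 element (TGANTCA, with N for any base) on either strand. AP-1 elements are bound by Fos and Jun factors.
Timp1: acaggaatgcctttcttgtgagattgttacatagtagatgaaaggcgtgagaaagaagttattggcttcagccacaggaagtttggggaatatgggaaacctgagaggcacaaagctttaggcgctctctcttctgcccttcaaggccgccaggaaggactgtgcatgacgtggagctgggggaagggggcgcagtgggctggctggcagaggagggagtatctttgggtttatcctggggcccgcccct
Adamts1: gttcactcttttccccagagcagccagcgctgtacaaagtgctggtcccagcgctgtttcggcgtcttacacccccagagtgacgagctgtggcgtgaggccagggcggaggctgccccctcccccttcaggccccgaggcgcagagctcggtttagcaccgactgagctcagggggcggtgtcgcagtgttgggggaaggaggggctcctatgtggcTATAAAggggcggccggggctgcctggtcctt
Mmp3: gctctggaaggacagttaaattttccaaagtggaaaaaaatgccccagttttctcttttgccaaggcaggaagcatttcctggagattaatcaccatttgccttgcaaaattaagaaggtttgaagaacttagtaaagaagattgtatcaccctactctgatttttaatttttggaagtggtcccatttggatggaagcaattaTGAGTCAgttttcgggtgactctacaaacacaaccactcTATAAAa
Htra1: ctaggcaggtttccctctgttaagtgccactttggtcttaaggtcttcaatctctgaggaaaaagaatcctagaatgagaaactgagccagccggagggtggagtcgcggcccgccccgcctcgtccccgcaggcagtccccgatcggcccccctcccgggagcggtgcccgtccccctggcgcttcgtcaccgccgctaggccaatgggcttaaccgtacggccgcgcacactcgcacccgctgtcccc
Timp1 lies at chrX:20869916-20870165 on the plus strand, Adamts1 at chr16:85803114-85803363 on the minus strand, Mmp3 at chr9:7445572-7445821 on the plus strand and Htra1 at chr7:130935953-130936202 on the plus strand. The AP-1 letters were found in the Mmp3 window alone, 46 bases before the start, and the TATA letters in Mmp3 and Adamts1. Timp1 and Htra1 each held a CCAAT box (CCAAT) and a GC box (GGGCGG), and Adamts1 held 3 GC boxes. The Ets core letters (AGGAAG) were in Timp1 and Mmp3, and in 29.5% of all promoters. Heat shock (GAANNTTC) and cyclic AMP response (TGACGTCA) letters were in none of the 4, against 6.69% and 1.55% of all promoters. Over the 32851 promoters in the table, 6.75% held the AP-1 letters, 12.4% the TATA letters, 33.8% the CCAAT letters and 32.7% the GC box letters. The Mmp3 window was 37.6% G and C, while those of Timp1, Htra1 and Adamts1 were 54.4%, 64.8% and 65.6%. These are matches of letters in a window, and binding was not measured.

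Among the inhibitors, Timp1 rose and the other 3 did not pass. TIMP1 blocks most secreted MMP enzymes and is the family member that inflammation and load are best known to induce. Its signal was 6.90, 6.75 and 6.09 in WT hearts and 8.14, 8.96 and 7.78 in KO hearts. All 3 KO hearts lay above all 3 WT hearts, with WT mouse 3 the lowest and KO mouse 2 the highest. The mean went from 6.58 ± 0.43 to 8.30 ± 0.60 (SD, n = 3 in each), a 3.28-fold rise (difference 1.72, SE 0.29, limma adjusted p = 0.0415). The call was lost when any single array except KO mouse 3 was left out. Across these 6 fits the difference stayed between 1.38, without KO mouse 2, and 1.97, without KO mouse 3, and it was 1.55 with KO mouse 1 and WT mouse 3 both left out. Over 16 alternatives the adjusted p ranged from 0.0136 to 0.254. In whole-heart RNA, a change in the number of cells of a type and a change in RNA per cell cannot be told apart, here and below.

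Timp3, the matrix-bound inhibitor with the widest range of targets, was at 8.95, 8.75 and 8.55 in WT and at 9.28, 8.93 and 9.34 in KO hearts. The groups overlapped by a small margin at WT mouse 1 and KO mouse 2, and the difference of 0.44 (SE 0.14, limma adjusted p = 0.269) did not pass. Of its 3 dimmer probe sets, 2 differed by 0.66 and 0.50 and the dimmest by 0.06, and none passed. At the probe set with 0.66 all KO hearts lay above all WT hearts.

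Timp2, which blocks MMP2 and also takes part in its activation by MMP14, was at 8.85, 8.64 and 8.15 in WT and 8.63, 8.44 and 8.73 in KO hearts. The difference was 0.05 (SE 0.17), and the KO values lay within the range of the WT values. Among its 5 other probe sets the difference ranged from -0.14 to 0.53, and none passed. At the probe set with 0.53 all KO hearts lay above all WT hearts. Timp4, the inhibitor richest in the heart, varied most between mice of a group. Its signal was 6.74, 7.30 and 8.07 in WT and 6.48, 6.86 and 7.91 in KO hearts, with SDs of 0.67 and 0.74. The difference of -0.29 (SE 0.38) was smaller than that spread.

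**Figure D2:**
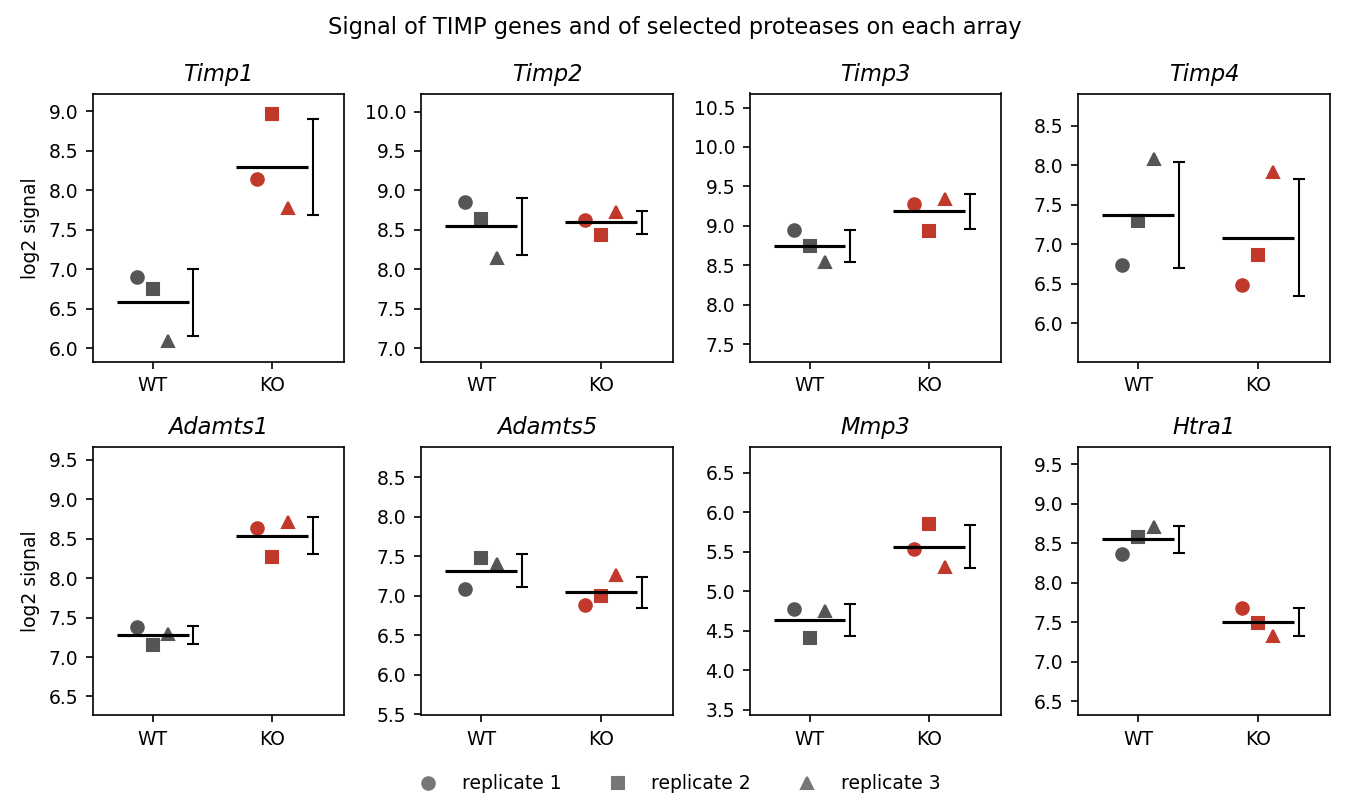
Signal (log2) of the 4 TIMP genes and of Adamts1, Adamts5, Mmp3 and Htra1 in each heart; symbols mark the replicate number, horizontal lines the group mean and bars the SD of 3 mice, and all panels span the same log2 range. At the brightest probe set of each gene, shown here, Timp1, Adamts1, Mmp3 and Htra1 show no overlap between WT and KO, while Timp2, Timp3, Timp4 and Adamts5 do.

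Htra1 fell in KO hearts, and the other HTRA genes did not pass. HTRA1 degrades fibronectin, proteoglycans and other matrix proteins and is known to restrain signalling by TGF-beta family growth factors. Its signal was 8.37, 8.57 and 8.71 in WT and 7.68, 7.49 and 7.33 in KO hearts. All KO values lay below all WT values, by more than the replicates of a group ranged. The mean went from 8.55 ± 0.17 to 7.50 ± 0.18 (SD, n = 3 in each), which is 2.07-fold lower (difference -1.05, SE 0.13, limma adjusted p = 0.00837). A second probe set gave 8.08, 8.16 and 8.24 in WT and 7.30, 7.16 and 7.05 in KO hearts, and it also fell (difference -0.99, SE 0.10, limma adjusted p = 0.00485). Without KO mouse 2 the brighter probe set no longer passed (-1.04, limma adjusted p = 0.0683), nor did it without KO mouse 1 and WT mouse 3 together (-1.06, limma adjusted p = 0.0514). In the other 14 alternatives it passed, with the smallest adjusted p at 0.00452.

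Htra3, a close relative of HTRA1 in domain structure, did not differ beyond its spread, with 8.33, 8.35 and 7.90 in WT and 7.92, 8.14 and 8.44 in KO hearts (difference -0.03, SE 0.16). Htra2, a mitochondrial protease of protein quality control, stood at -0.03 (SE 0.10). Htra4, a secreted relative best known from placenta, stood at 0.25 (SE 0.15). Whether the Htra1 difference exceeds that of Htra3 was not tested.

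Adamts1 showed the smallest p-value of all members. ADAMTS1 cuts versican and aggrecan and inhibits blood vessel growth. Its signal was 7.38, 7.16 and 7.30 in WT and 8.63, 8.27 and 8.70 in KO hearts. The lowest KO heart, mouse 2, stood well above the highest WT heart. The mean went from 7.28 ± 0.11 to 8.53 ± 0.23 (SD, n = 3 in each), a 2.39-fold rise (difference 1.26, SE 0.13, limma adjusted p = 0.00485). It alone of the 4 kept its call whichever single array was left out, with the difference between 1.17 and 1.39. With KO mouse 1 and WT mouse 3 both left out it was 1.22 (limma adjusted p = 0.0656), the only alternative of 16 that ended the call.

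Adamts5, another versican- and aggrecan-cleaving enzyme, is the gene next to Adamts1 on chromosome 16 in the order of protein-coding genes, and it did not rise. Its signal was 7.08, 7.47 and 7.39 in WT and 6.88, 6.99 and 7.26 in KO hearts. It differed by -0.27 (SE 0.14, limma adjusted p = 0.535). Its groups overlapped at this probe set. At 2 of its other probe sets the difference was -0.32 and -0.29, and at the dimmest, far below the median of the arrays, -0.06. At the probe set with -0.32 all KO hearts lay below all WT hearts, and it did not pass (limma adjusted p = 0.427).

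Adamts4, which shares these substrates, was dim but higher in every KO heart. Its brighter probe set read 3.48, 3.32 and 3.54 in WT and 3.66, 3.94 and 3.81 in KO hearts (difference 0.36, SE 0.11, limma adjusted p = 0.246). The other read 3.31, 3.28 and 2.96 in WT and 3.83, 3.72 and 3.91 in KO hearts (difference 0.64, SE 0.12, limma adjusted p = 0.0641). Neither passed alone, and their mean did when genes were tested by the mean of their probe sets (0.50, limma adjusted p = 0.0381).

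Adamts9, a versican-cleaving enzyme of vessels and developing heart, differed between its probe sets. The brightest was at 7.05, 6.57 and 7.003 in WT and 6.93, 6.82 and 7.17 in KO hearts (difference 0.10). A dimmer one read 4.71, 5.35 and 5.21 in WT and 5.56, 6.49 and 6.36 in KO hearts (difference 1.05, SE 0.24, limma adjusted p = 0.127), with no overlap. Adamts10, which takes part in fibrillin microfibrils, differed in sign between its probe sets. The brighter read 5.94, 6.06 and 5.95 in WT and 6.22, 6.02 and 6.08 in KO hearts (difference 0.13, SE 0.10). The dimmer one read 3.15, 3.36 and 3.50 in WT and 2.59, 2.80 and 2.61 in KO hearts and passed as lower (difference -0.67, SE 0.12, limma adjusted p = 0.0490). The KO values of that probe set lay around the lower quartile of the arrays, which was 2.72 to 2.78. Which transcripts these probe sets read was not analysed here, and the gap between probe sets was not tested.

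Other ADAMTS genes did not pass. Adamts7, which cleaves cartilage oligomeric matrix protein, was at -0.47 (SE 0.16, limma adjusted p = 0.301) and Adamts3, a procollagen processing enzyme, at -0.26 (SE 0.10, limma adjusted p = 0.407). Adamts8, an inhibitor of vessel growth that lies beside Adamts15 on chromosome 9, had a difference of 0.71 (SE 0.37) that came from a single array. It read 6.68 in KO mouse 1, the array with atrial genes, and between 4.71 and 5.17 in the other 5 hearts.

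Among the MMP genes, Mmp3 alone passed. MMP3, or stromelysin 1, cuts proteoglycans, laminin and fibronectin and activates other MMP proenzymes. Its signal was 4.77, 4.40 and 4.74 in WT and 5.53, 5.86 and 5.31 in KO hearts. All KO hearts lay above all WT hearts. The mean went from 4.64 ± 0.20 to 5.57 ± 0.27 (SD, n = 3 in each), a 1.90-fold rise (difference 0.93, SE 0.15, limma adjusted p = 0.0405). The call was lost in each of the 6 fits without a single array, with adjusted p from 0.0526 without KO mouse 3 to 0.154 without KO mouse 2, while the difference stayed between 0.78 and 1.05. It was also lost with KO mouse 1 and WT mouse 3 both left out (limma adjusted p = 0.244), and held in 8 of 16 alternatives.

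Mmp3 lies in a run of 10 MMP genes on chromosome 9, in the order Mmp13, Mmp12, Mmp1b, Mmp3, Mmp1a, Mmp10, Mmp8, Mmp27, Mmp20 and Mmp7 in the RefSeq gene table. Mmp27 was not analysed here, and of the 9 others 8 held the AP-1 letters TGANTCA in a promoter window. The matches are shown with 12 bases on each side, because genes that match these letters differed in signal, and Mmp3 alone of them was called. The middle base, written N, is A in Mmp20 and C or G in the other genes. Capitals mark the element, and each line runs 5′ to 3′ on the strand of its gene.
Mmp13: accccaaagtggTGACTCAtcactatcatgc
Mmp12: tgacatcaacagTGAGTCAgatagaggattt
Mmp1b: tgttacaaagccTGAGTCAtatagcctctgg
Mmp3: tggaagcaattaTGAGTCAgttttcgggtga
Mmp1a: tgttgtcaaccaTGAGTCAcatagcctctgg
Mmp10: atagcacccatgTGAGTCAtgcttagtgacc
Mmp20: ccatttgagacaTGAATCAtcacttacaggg
Mmp7: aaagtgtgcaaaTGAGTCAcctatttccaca
In GRCm38.p6 these windows are Mmp13 at chr9:7272467-7272497, Mmp12 at chr9:7347318-7347348, Mmp1b at chr9:7388101-7388131, Mmp3 at chr9:7445764-7445794, Mmp1a at chr9:7464056-7464086, Mmp10 at chr9:7502267-7502297, Mmp20 at chr9:7628124-7628154 and Mmp7 at chr9:7692015-7692045, with Mmp1b on the minus strand and the others on the plus strand. The element began between 35 and 95 bases before the annotated start, at 35 in Mmp13, 44 in Mmp12, 46 in Mmp3, 63 in Mmp10 and Mmp7, 73 in Mmp1a, 93 in Mmp1b and 95 in Mmp20. Mmp8, the neutrophil collagenase, had no match in its window. Mmp12 and Mmp7 have 2 annotated promoters each, with the match in 1 of them. Among all 39 members with a promoter in the table, 10 of 44 windows (22.7%) held the letters, the other genes being Adam19 and Adam25. Since the gene copies of this run share ancestry, their windows are not independent of one another.

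Mmp13, a collagenase of interstitial collagen at the end of this run, went the other way without passing. It read 2.86, 2.72 and 3.03 in WT and 2.09, 2.14 and 2.50 in KO hearts, with no overlap (difference -0.63, SE 0.13, limma adjusted p = 0.0962). These signals lie around and below the lower quartile of the arrays, so the size is uncertain. The other 7 measured genes of the run, including the macrophage elastase Mmp12 at 0.21 (SE 0.14), differed by -0.05 to 0.21, and none passed. Except Mmp3, all measured genes of the run had a mean signal below the median of all probe sets.

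**Figure D3:**
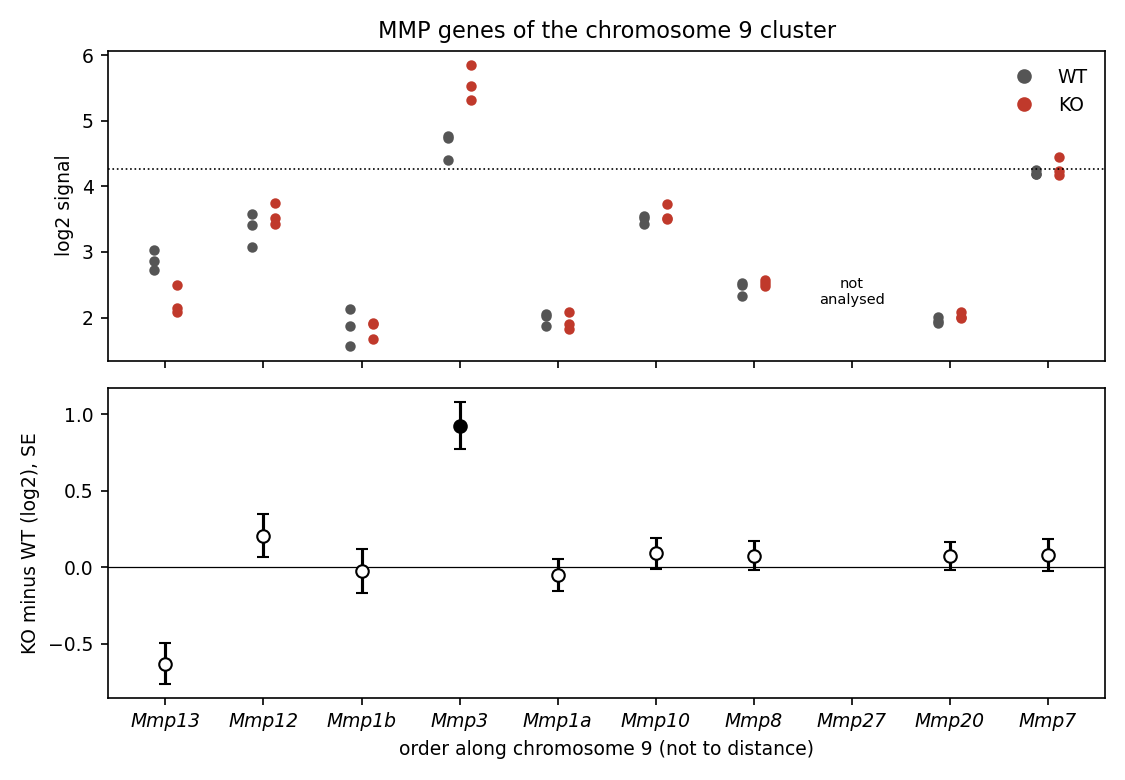
MMP genes of the chromosome 9 run in their order, with the signal of each heart (upper panel, log2; the dotted line is the median of all probe sets) and the difference between KO and WT with its SE (lower panel, log2; filled where the limma adjusted p is below 0.05). Mmp3 at 0.93 is the only filled point, and Mmp13 at -0.63 lies lowest.

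Mmp2, a gelatinase of fibroblasts, was at 9.44, 9.13 and 8.19 in WT and 8.59, 8.96 and 8.70 in KO hearts. The WT mice ranged wider than the KO mice, and the difference of -0.17 (SE 0.26) was below that spread. Without WT mouse 1 it was 0.09. With WT mouse 3, the lowest heart, set aside instead, the WT values of 9.44 and 9.13 lay above all KO values. Mmp14, the membrane-bound enzyme that activates proMMP2, read 6.94, 6.86 and 6.33 in WT and 7.05, 7.02 and 7.23 in KO hearts. The groups did not overlap, but the difference of 0.39 (SE 0.16, limma adjusted p = 0.400) did not pass, and WT mouse 3 was the lowest. Its dimmer probe sets, also above the median of all probe sets, differed by -0.003 and 0.10, with overlapping groups. Mmp23, a membrane-anchored member, read 6.65, 6.73 and 5.87 in WT and 7.10, 6.90 and 6.79 in KO hearts (difference 0.51, SE 0.20, limma adjusted p = 0.399), with WT mouse 3 again lowest. The gelatinase Mmp9 (-0.13, SE 0.10) and Mmp8 (0.08, SE 0.10), both known from neutrophils, were dim. Neither passed. Mmp24, a membrane-bound enzyme of the nervous system, stood at -0.08 (SE 0.11). Its dimmer probe sets differed by 0.25 (SE 0.11, limma adjusted p = 0.458) and 0.06 (SE 0.09). At the first of these all KO hearts lay above all WT hearts, and neither passed.

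No ADAM gene passed in limma, 1 of 28 had an unadjusted p below 0.05 (3.57%, against 11.5% of all genes), and differences ran from -0.16 to 0.36. That gene was Adam9, a sheddase of growth factor precursors, which read 8.56, 8.32 and 8.05 in WT and 8.60, 8.77 and 8.63 in KO hearts (difference 0.36, SE 0.13, limma adjusted p = 0.358). Its groups were separated by a narrow gap between WT mouse 1 and KO mouse 1. Adam17, the main sheddase of tumour necrosis factor, read 7.63, 7.73 and 7.68 in WT and 7.61, 7.71 and 7.76 in KO hearts (difference 0.02, SE 0.09), with SDs of 0.05 and 0.08. Adam10, which cuts Notch and cadherins, stood at 0.12 (SE 0.12). Adam15 stood at 0.14 (SE 0.10), Adam19, which is needed for heart valve development, at -0.16 (SE 0.12) and Adam12, a sheddase known from cardiac hypertrophy, at 0.10 (SE 0.12). Of the 28 genes, 19 were below the median of all probe sets, many of them known from testis. Of all genes below that median 5.49% had an unadjusted p below 0.05, so the 11.5% is not matched to the signal of this family. Adam5, a sperm protein gene, was at 0.22 (SE 0.10) with a mean signal in the lowest 3.40% of probe sets.

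**Figure D4:**
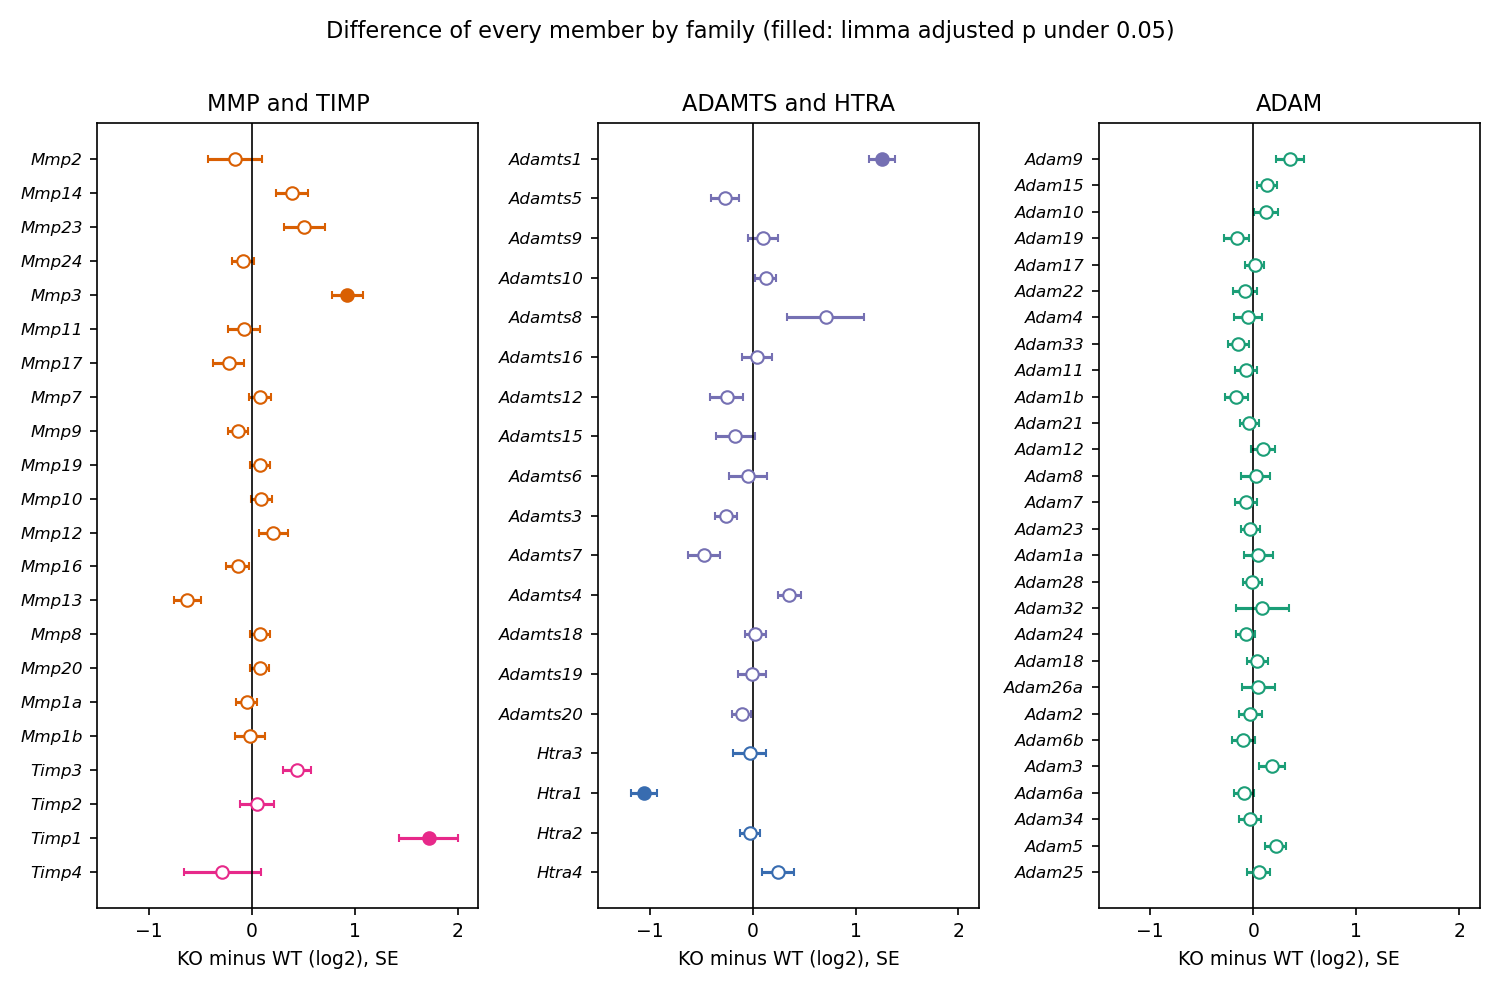
Difference between KO and WT (log2, with SE) for each of the 69 members, grouped by family and ordered by mean signal with the brightest on top; filled points have a limma adjusted p below 0.05. Filled points are Mmp3, Timp1, Adamts1 and Htra1, and the 28 ADAM genes lie between -0.16 and 0.36.

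Members were also described by signal level. Relative to all probe sets, 36 members lay below the median, 16 between the median and the upper quartile, and 17 above it, with all 4 TIMP genes in the bright group and 19 of 28 ADAM genes in the dim group. Of the 17 bright members, 2 rose and 1 fell, against 0.815% of all bright genes called. Of the 16 middle members 1 rose (0.753% of such genes called), and of the 36 dim members 0 passed in limma (0.16% of dim genes called). An unadjusted p below 0.05 was found for 4 dim members, or 11.1%, against 5.49% of dim genes. The groups did not overlap for 5 dim members (13.9%, against 9.73% of dim genes) and 2 middle members (12.5%, against 16.6% of middle genes). The groups did not overlap for 7 of the 17 bright members, which is 41.2%, against 24.4% of bright genes. The median difference was 0.10 for bright, -0.06 for middle and -0.01 for dim members. WT mouse 3 was the lowest of the 6 arrays for 9 of the 17 bright members, or 52.9%, against 27.5% of bright genes.

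Where a member had more than 1 probe set, the difference at each was set beside that at the brightest. Of the 69 genes, 33 had several, giving 55 other probe sets. The difference was more than 0.5 away from that of the brightest for 2 of them, 1 each of Adamts9 and Adamts10. The median size of a member's difference was 0.095, so a gap of 0.5 misses smaller disagreements. This count therefore does not show that the other probe sets agree. Below that gap, Timp2 stood at 0.05 and at 0.53 on a dimmer probe set, and Mmp14 at 0.39 and -0.003. Among the 55, 2 passed in limma, those of Htra1 and Adamts10, which is 3.64% against 0.422% of all probe sets. An unadjusted p below 0.05 was found for 11 of the 55 (20.0%), against 10.6% of all probe sets.

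Genes that act with these proteases were counted from 6 lists. Of 91 measured genes 5 rose and 0 fell in limma, which is 5.49% against 0.549% of all genes called, with a median difference of 0.04. Leaving out single arrays gave 3 or 4 calls, with 3 without WT mouse 2, WT mouse 3, KO mouse 1 or KO mouse 2. The cell-surface proteins that ADAM enzymes shed held 3 of the 5, of 18 measured, with a list median of 0.02. Hbegf, the precursor of heparin-binding EGF-like growth factor, read 8.07, 8.20 and 7.73 in WT and 9.13, 9.10 and 9.39 in KO hearts, a 2.31-fold rise (difference 1.21, SE 0.14, limma adjusted p = 0.00652). Its call was lost only with KO mouse 1 and WT mouse 3 both left out (limma adjusted p = 0.0514). Tnf, the tumour necrosis factor precursor that ADAM17 releases, rose by 1.10 (SE 0.12, limma adjusted p = 0.00485). The EGF receptor ligand Ereg rose by 1.30 (SE 0.22, limma adjusted p = 0.0443), with a call that held without KO mouse 3 and with no other single array left out. The sheddases Adam10, Adam17 and Adam9 were not called in the same hearts. Tnfrsf1b (0.38, SE 0.11) and Tnfrsf1a (0.26, SE 0.09), receptors of tumour necrosis factor, did not pass.

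Among 17 other matrix-degrading proteases, Ctsk rose and 0 fell in limma. Cathepsin K is a lysosomal collagenase. It read 6.83, 6.74 and 6.28 in WT and 7.89, 8.05 and 7.91 in KO hearts, a 2.52-fold rise (difference 1.33, SE 0.14, limma adjusted p = 0.0050). Its call held in all 16 alternatives. The mast cell chymase Cma1 was at -0.56 (SE 0.16) and the neprilysin gene Mme at -0.55 (SE 0.17), and neither passed. Among 24 matrix substrates, 20 had a positive difference with a median of 0.34, and Col3a1 (type III collagen) alone rose. Without WT mouse 3, 17 of the 24 were positive and the median was 0.12. Col3a1 went from 11.12 to 11.67 (difference 0.55, SE 0.10, limma adjusted p = 0.0481), and its call was lost without each single array. Tnc (0.78, SE 0.22), Vcan (0.46, SE 0.16) and Thbs1 (0.67, SE 0.15), which encode tenascin C, versican and thrombospondin 1, did not pass.

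Of 8 genes of plasminogen activation, the cascade that produces an MMP-activating protease, 0 passed in limma and 1 had an unadjusted p below 0.05, the receptor Plaur at 0.50 (SE 0.14). Of 16 other inhibitors and activators, 0 passed in limma and 2 had an unadjusted p below 0.05. These were Tfpi2, an inhibitor of serine proteases including plasmin, at 0.53 (SE 0.12, limma adjusted p = 0.112), and Pcsk6, a proprotein convertase that processes proenzymes, at -0.44 (SE 0.11, limma adjusted p = 0.155). Of 9 ADAMTS-like and ADAM-like relatives 0 passed in limma and 1 had an unadjusted p below 0.05, Adamtsl2 at 0.40 (SE 0.15). These counts are 12.5%, 12.5% and 11.1% of the 3 lists, near the 11.5% of all genes at that threshold.

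Markers of the cells that could supply these transcripts were read in the same hearts, where an unadjusted p below 0.05 was found for 11.5% of all genes and 17.7% of bright genes. None of the lists for fibroblasts, activated fibroblasts, macrophages, neutrophils, smooth muscle, endothelium, mast cells, epicardium, lymphoid cells or heart muscle had a gene called in limma. Of 12 fibroblast markers 6 had an unadjusted p below 0.05, 5 of them higher and 1 lower in KO hearts (Gsn at -0.34). Of the 12, 9 had a positive difference and the median was 0.27, or 0.14 without WT mouse 3. Their summed signal ran from 10285 to 14917 in WT and from 14994 to 16422 in KO hearts. The 8 activated fibroblast markers all had a positive difference (median 0.79, 0 at an unadjusted p below 0.05), with sums of 1687 to 5719 in WT and 4733 to 6586 in KO hearts. Without WT mouse 3, 4 of the 8 were positive, the median was 0.05 and the WT sums began at 4191. Of 15 macrophage and monocyte markers 13 had a positive difference and 8 an unadjusted p below 0.05 (53.3%), with sums of 3096 to 4060 in WT and 4255 to 4692 in KO hearts. Their median was 0.34, or 0.21 without WT mouse 3.

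Neutrophil markers summed to 155 to 167 in WT and 193 to 239 in KO hearts. Of these 9 genes, 2 had an unadjusted p below 0.05, S100a9 at 1.32 and S100a8 at 0.95, and the other 7 lay between -0.03 and 0.16. Of 9 smooth muscle and pericyte markers 3 had an unadjusted p below 0.05, in both directions, with Tagln at 0.88, Cnn1 at 1.42 and Abcc9 at -0.64 (list median 0.05, sums 7322 to 7865 in WT and 7068 to 8675 in KO hearts). Of 9 endothelial markers 0 did (median -0.04, sums 2428 to 2583 in WT and 2335 to 2674 in KO hearts). The mast cell list (median 0.05) held 1 such gene of 7, Cma1 at -0.56, and the epicardial list (median 0.08) 1 of 6, Wt1 at 0.60. The T, NK and B cell list (median -0.10) held 2 of 9, Ncr1 at -0.35 and Cd79a at -0.34. All 10 heart muscle markers were lower in KO by mean (median -0.15, 2 at an unadjusted p below 0.05). For 8 of the 10 (80%) all KO arrays lay below all WT arrays, where 24.4% of bright genes had groups without overlap. Their sums were 85944 to 89421 in WT and 78740 to 81463 in KO hearts.

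Among the 7 atrial markers Nppa rose, and the median of 1.44 rested on KO mouse 1. Without that array 3 of the 7 had a positive difference and the median was -0.02. The sums were then 3885 to 6698 in WT and 10658 to 12893 in KO hearts. These sums rest mainly on Nppa, at 13.63 and 13.36 in KO mice 2 and 3, where Myl7 was at 3.90 and 3.71. Immediate early genes, which include the Fos and Jun components of AP-1, all had a positive difference (14 of 14, median 0.88), and 5 rose, against 0.322% of all genes. Heat shock genes had a median of 0.30 with 2 of 10 rising. The part of these marker and handling genes in the differences of Timp1, Adamts1, Mmp3 and Htra1 was not tested.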

How the data were processed

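The authors deposited log2 signals per probe set of Affymetrix arrays, made from 400 ng of total RNA per heart. The submitters' processing notes name RMA and limma; their versions are not stated there. RMA makes the distributions of arrays alike, so an overall shift in signal would be removed, and dim signals are compressed. Of 38208 rows, 13 control probe sets were left out, leaving 38195. Of these, 34325 had 1 gene symbol in the platform annotation, 62 several and 3808 none. Each of 18029 genes was represented by its brightest probe set over the 6 arrays. A brightness compares hearts at 1 probe set and does not rank genes, since probe sets differ in their probes.

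KO was compared with WT by limma 3.58.1 (R 4.3.3) with lmFit and eBayes, two-sided, with Benjamini-Hochberg adjustment over 38195 probe sets and a threshold of 0.05. The p-values and SEs rest on the spread between 3 mice in each group, moderated by eBayes toward a prior spread fitted over all probe sets. An SE can therefore differ from what the SDs of its gene give, and the number of mice limits the precision. Marker sums add linear signals of each list's genes, so the brightest probe sets of a list weigh most in them. The genes, lists, motifs and tests were chosen with earlier results of these data known. Named members are all TIMP and HTRA genes, those called at any probe set, the 16 smallest p, the 4 brightest of each larger family and a set of genes known from hearts, 32 in all; of each list, those called and up to 4 more with the smallest p could be named. Data were simulated for 38195 probe sets. In them, the fit recovered 10 of 67 changes of 0.5, 61 of 67 of 1 and 66 of 66 of 2. Of 146 calls there, 9 were false. The simulation drew variances from the prior fitted by limma, with independent normal errors and no outlying array. It therefore cannot give the power or the share of false calls for the real arrays. Alternatives were other variance priors, array weights, normalization, centring, a filter at the 40th percentile, other gene summaries, a replicate block and left-out arrays. List medians without WT mouse 3 or KO mouse 1 were added after seeing the data. A planned search for the zinc-binding motif in member proteins was not made, since no protein sequences were used here.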

Additional observations from a re-analysis of the deposited data

How the results depend on the processing

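Across 16 alternatives for 32 members and 5 companion genes, 530 of 588 values kept their direction and side of the threshold. Adamts1 stayed called in 15, Htra1 in 14 and Timp1 and Mmp3 in 8 each. The count of members called, 4, was 3 with a replicate block (2 higher and 1 lower, Mmp3 at adjusted p = 0.0761), 3 with a robust prior (Timp1 at adjusted p = 0.127), 12 at an unadjusted p below 0.05, and 1 to 3 with single arrays left out (1 to 2 higher, 0 to 1 lower). With KO mouse 1 and WT mouse 3 both left out, limma called 0 members (0 higher and 0 lower), 2 companion genes and 29 probe sets. The whole-table count of 161 was 102 with 1 probe set per gene, 168 with the replicate block and 38 to 86 without single arrays. The companion count of 5 was 3 with the mean of probe sets per gene and 3 to 4 without single arrays. Correlations of deviations between mice of the same number were 0.06, 0.14 and 0.02, against -0.14 to 0.08 between mice of different numbers. With 3 mice in each group these values cannot decide whether the labels' numbers pair the mice, and the main fit did not pair them.

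Some members that did not pass changed sign. Without single arrays the difference ranged from -0.018 to 0.056 for Adam17, from -0.053 to 0.19 for Adamts9, from -0.077 to 0.00026 for Htra2, from -0.17 to 0.098 for Htra3, from -0.53 to 0.094 for Mmp2, from -0.15 to 0.20 for Timp2 and from -0.70 to 0.066 for Timp4. For Mmp2, the -0.53 was the fit without WT mouse 3. With the mean of probe sets, Adam17 was at -0.012, Adamts10 at -0.27 and Mmp24 at 0.075. With KO mouse 1 and WT mouse 3 both left out, Htra2 was at 0.024, Htra4 at -0.017, Timp2 at -0.16 and Timp4 at 0.37. The cause of these changes was not tested. The 36 members below the median signal carry little information on the size of a difference.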
